A study of Mus musculus with 2 samples.

Results

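The 46 mouse genes described here are all those whose symbol begins with Nduf, apart from symbols that hold "-ps", and that have a protein-coding transcript. They were found among 55536 annotated genes, 22028 of them protein-coding, and were chosen by name, not by any measured value. Complex I, the NADH:ubiquinone oxidoreductase of mitochondria, takes electrons from NADH, passes them through a flavin and a chain of iron-sulfur clusters to ubiquinone, and pumps protons across the inner membrane. Its core subunits, kept from bacteria, carry out this chemistry. Some are encoded in the nucleus and the others by the mitochondrial genome. Accessory subunits surround the core and stabilise it, and assembly factors build the complex without remaining in it. Heart muscle is rich in mitochondria and draws most of its ATP from this chain. By class, 7 of the genes encode core subunits, 31 are accessory and 8 are assembly factors of the Ndufaf series. The accessory genes divide into 9 of the peripheral arm, which reaches into the matrix, 19 of the membrane arm, and Ndufab1, the acyl carrier protein, which sits in both arms. The other two, Ndufa4 and Ndufa4l2, carry the family's name although Ndufa4 is now counted in cytochrome c oxidase. So 36 of the 46 encode subunits in complex I.

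The RNA was from hearts of male B6CASTF1/J mice at postnatal day 10, hybrids of the first generation between a B6 and a CAST mouse, and the labels name no treatment. The single group held 2 libraries, called replicate 1 and replicate 2 by their labels. Each was total RNA sequencing with strand kept, made from 300 ng of RNA from which ribosomal RNA had been reduced, with ERCC control RNAs added. The labels number the males separately but name 1 donor record for both, and the spread reported here may in part be technical. The expected count, which splits a read among the genes it could come from, totalled 38851514 in replicate 1 and 37907585 in replicate 2. A second deposited quantification of the same libraries totalled 38688448 and 37361816.

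All 10 cardiomyocyte markers were detected in both libraries, at a median of 2740 ± 133 TPM (SD, n = 2). TPM is a gene's share of all transcripts, scaled for length and depth to the same sum in each library. None of 5 skeletal muscle markers reached 1 TPM in both. Several lists of markers of other cell types were lower in replicate 2. Medians of the log2 ratio of TMM-scaled counts, replicate 2 over replicate 1, were -4.95 for adipocyte, -2.05 for atrial, -0.42 for fibroblast and -0.49 for macrophage markers, -0.06 for endothelial, 0.23 for red blood cell and 0.18 for cardiomyocyte markers. On the scale of TPM, most genes were lower in replicate 2. All protein-coding genes together held 53.5% of TPM in replicate 1 and 47.5% in replicate 2. On that scale the summed level of 9 adipocyte markers was 1090 TPM in replicate 1 and 464 TPM in replicate 2. Fabp4 alone held 666 and 433 TPM of these sums, at a log2 ratio of -0.36. Of the 7 adipocyte markers with a mean count of at least 50, 6 were over 2-fold lower in replicate 2. Lep and Retn were under 1 TPM in both libraries, at 0.12 and 0.13 TPM in replicate 1 and listed at 0 in replicate 2. For 5 atrial markers the sums were 1504 and 269 TPM, for 6 fibroblast markers 1724 and 1086 TPM, for 5 macrophage markers 52.3 and 32.5 TPM, and for 5 endothelial markers 470 and 377 TPM. Red blood cell markers summed to 11556 and 12365 TPM and cardiomyocyte markers to 36880 and 34690 TPM. In bulk tissue, fewer cells of a type and less RNA per cell cannot be told apart.

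Every one of the 46 genes was detected, at 1 TPM or more in both libraries, where 52.4% of protein-coding genes were. At 10 TPM or more in both stood 44 of them, against 25.2% of protein-coding genes, and at 100 TPM or more 35 of them, against 2.5%. Core and accessory subunits lay at one level and assembly factors far below them. The median was 272 ± 34.0 TPM for the core, 240 ± 26.5 TPM for accessory members and 18.6 ± 3.50 TPM for assembly factors (SD of the median over 2 libraries). Among the 11546 detected protein-coding genes, the median core subunit stood at the 98.0th percentile of mean TPM and the median assembly factor at the 68.8th. The core median was 14.7 ± 0.943 times the assembly median, and 18.6 ± 2.72 times in the second quantification. Against the accessory median it was 1.13 ± 0.0165 times. Together the 46 genes held 1.27% of all TPM in replicate 1 and 1.10% in replicate 2.

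**Figure D1:**
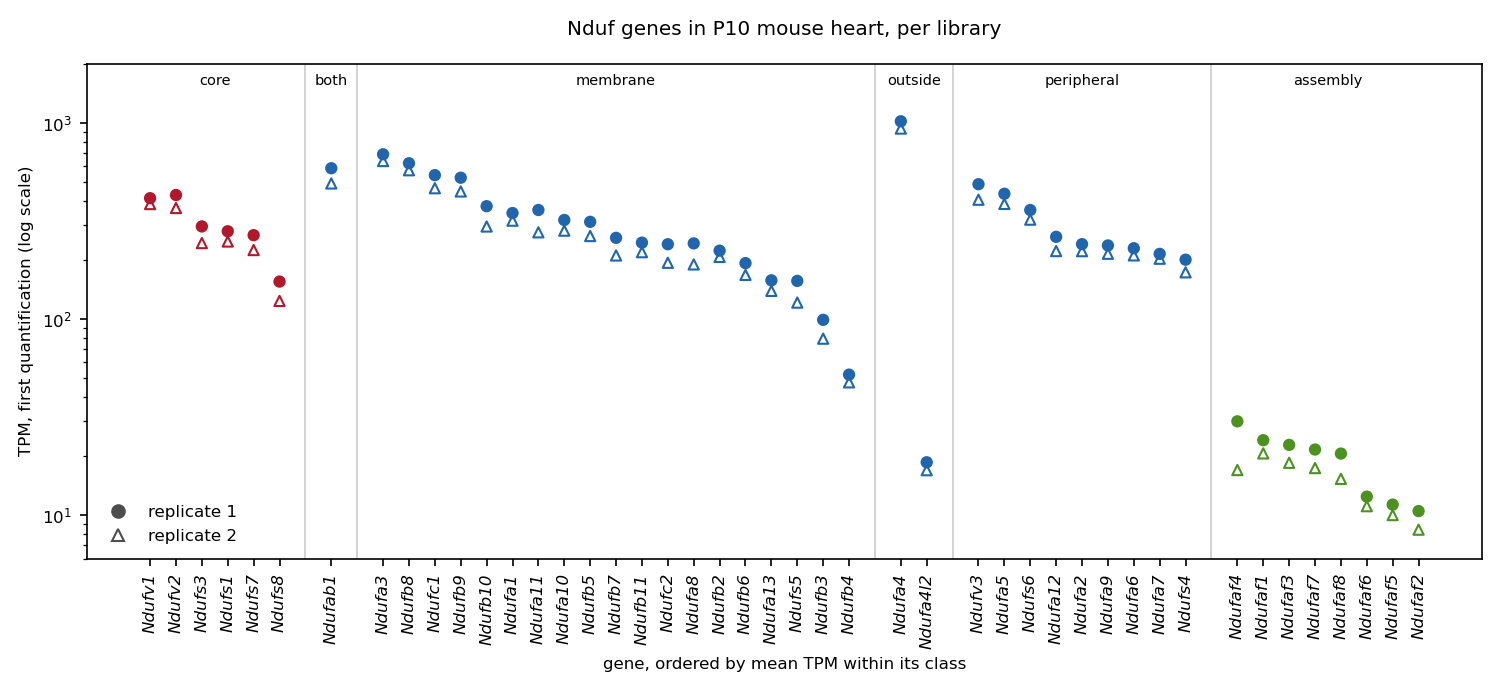
TPM of 45 of the 46 genes, those reported by name, in replicate 1 (filled circles) and replicate 2 (open triangles), on a log axis, grouped into core subunits, accessory members by arm and assembly factors, and ordered by mean within each group. The 8 assembly factors lie between 8.42 and 30.03 TPM, below every subunit in complex I that is plotted, the lowest of which is Ndufb4 at 47.5 TPM in replicate 2.

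The 6 core subunits reported by name spanned 2.86-fold and fell into 3 levels that did not overlap over the libraries. At the top stood Ndufv1, which binds NADH and the flavin, at 412 TPM in replicate 1 and 385 TPM in replicate 2, and Ndufv2, an iron-sulfur subunit, at 428 and 367 TPM. They exchanged places between the libraries, with Ndufv2 ahead of Ndufv1 in replicate 1 and behind it in replicate 2, so their order is within the spread. The middle level held Ndufs3, a scaffold of the peripheral arm, at 296 and 243 TPM, Ndufs1, which carries several iron-sulfur clusters, at 280 and 248 TPM, and Ndufs7, which holds the last cluster before ubiquinone, at 267 and 224 TPM. These too lay within each other's spread. Ndufs8, a ferredoxin-like iron-sulfur subunit, was lowest at 155 and 123 TPM, and its higher value lay below the lower value of each other named core subunit. The middle level was more widely spread in the second quantification, where Ndufv2 stood at 763 TPM, Ndufv1 at 646 TPM, Ndufs3 at 522 TPM, Ndufs7 at 346 TPM and Ndufs1 at 289 TPM. Ndufs8 was lowest there too, at 168 TPM.

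Accessory members ranged far more widely. Ndufa4 was the highest of all 46 genes in the first quantification, at 1017 TPM in replicate 1 and 934 TPM in replicate 2. Its relative Ndufa4l2, known for its induction by low oxygen, was the lowest accessory member at 18.6 and 16.9 TPM. In the second quantification Ndufb8 stood above Ndufa4, at 1062 against 1031 TPM. Among the accessory subunits in complex I, the highest in the first quantification were Ndufa3 of the membrane arm at 690 and 638 TPM, Ndufb8 at 621 and 572 TPM, Ndufab1 at 586 and 490 TPM, and Ndufc1 at 540 and 463 TPM. Ndufa3 was at 386 and 428 TPM in the second quantification, below Ndufb9, Ndufv3, Ndufa5 and Ndufs6 among others. At the lower end stood Ndufb4 at 52.0 and 47.5 TPM, Ndufb3 at 98.9 and 79.3 TPM, Ndufs5, a membrane arm subunit that faces the intermembrane space, at 156 and 121 TPM, and Ndufa13, also known as GRIM-19, at 157 and 139 TPM. Between these ends the subunits were close together. The upper quartile of the 36 subunits in complex I was only 1.84 times the lower quartile, while the range from Ndufa3 to Ndufb4 was 13.4-fold. In the peripheral arm the 9 accessory genes spanned 2.39-fold, from Ndufv3 at 486 and 405 TPM and Ndufa5 at 434 and 385 TPM down to Ndufs4 at 200.3 and 173 TPM. Ndufs6, which binds zinc, followed at 359 and 321 TPM. The others, Ndufa12, Ndufa2, Ndufa9, Ndufa6 and Ndufa7, lay between 209 and 242 TPM on average, and neighbours in that order lay within each other's spread. In the membrane arm, Ndufb9 at 524 and 446 TPM followed the highest 3, and the 11 genes from Ndufb10 to Ndufb6 ran from 336 to 180 TPM on average. By arm the medians were 231 ± 13.4 TPM (peripheral) and 239 ± 28.4 TPM (membrane), a difference smaller than the spread of the membrane arm median over the libraries.

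The low value of Ndufb4 depended on a copy of its sequence. The gene lies on chr16:37647170-37654453 (minus strand, mm10), and the processed pseudogene Ndufb4c lies on chr15:73809507-73809896. The pseudogene's 390 annotated bases are the Ndufb4 coding sequence with its stop codon, with 0 mismatches in 390, so no read within it can tell the genes apart. The first 150 of these bases are printed once, since they belong to both, with the start codon in capitals (GENCODE M21 transcripts).
Ndufb4 and Ndufb4c: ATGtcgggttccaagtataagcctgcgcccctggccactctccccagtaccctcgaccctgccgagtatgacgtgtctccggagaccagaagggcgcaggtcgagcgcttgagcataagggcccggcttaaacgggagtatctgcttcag
The first quantification gave Ndufb4c 1876 counts in replicate 1 and 1743 in replicate 2, and Ndufb4 itself 915 and 1009. The pseudogene thereby held 67.2% and 63.3% of the reads of both. The second quantification gave Ndufb4c 0 counts in either library and Ndufb4 1553 and 1602. Summed over both genes, TPM in the first quantification was 265 in replicate 1 and 234 in replicate 2 (250 ± 21.8). That sum scales the reads of Ndufb4c by its own effective length, 291 bases in replicate 1, against 582 for Ndufb4. Over the longer length the same reads would give fewer TPM. The sum therefore does not place Ndufb4 among the accessory subunits. Ndufb4 alone was at 305 TPM in the second quantification, but the retained-intron transcript Ndufb4-202 held 92.8% and 92.2% of that. The coding transcript Ndufb4-201 was at 21.5 and 27.0 TPM in the first quantification and at 20.8 and 23.0 TPM in the second. In the second quantification the lowest subunit in complex I was Ndufb3, at 160 TPM, and the range over the 36 subunits was 6.65-fold.

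Reads of 4 other members were open to the same division. In all, 7 pseudogenes shared at least 50% of their words of 31 bases with 5 members. BC002163, with 81.0% of its words in Ndufs5, received 633 and 604 counts in the first quantification and 0 in the second, while Ndufs5 received 2017 and 1657. Gm15920, with 84.9% in Ndufa12, received 585 and 549 counts beside 3923 and 3505 for Ndufa12. Gm4459, with 92.9% in Ndufab1, went the other way: 148 and 207 counts in the first quantification and 1056 and 909 in the second. Gm12251, with 61.0% of its words in Ndufs3, held at most 14.8 counts in the first quantification beside 5423 for Ndufs3 in that library. The levels of Ndufb4, Ndufs5, Ndufa12 and Ndufab1 are therefore uncertain by the share that these copies hold.

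**Figure D2:**
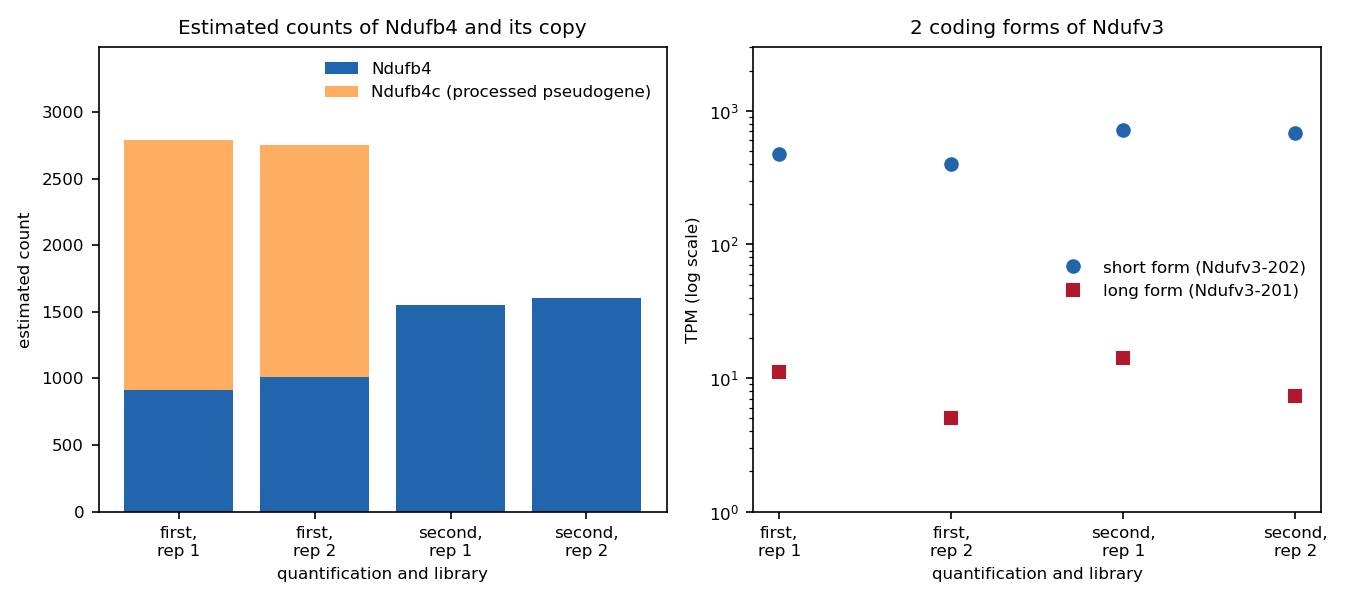
Left, estimated counts of Ndufb4 and of its identical copy Ndufb4c, stacked, in each quantification and library; right, TPM of the short and long coding forms of Ndufv3 on a log axis. Ndufb4c holds 1876 and 1743 counts in the first quantification and 0 in the second, and the long form of Ndufv3 is at 11.1 and 5 TPM in the first quantification against 474 and 399 TPM for the short form.

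Ndufv3, an accessory subunit at the tip of the peripheral arm, is made in a short and a long form that differ by 1 coding exon, exon 3 of the long form (chr17:31527310-31528401, plus strand, mm10), 1092 bases long. The joins that tell the forms apart are shown with capitals for the bases on the side where they differ.
Short form, join: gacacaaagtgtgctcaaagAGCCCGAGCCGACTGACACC
Long form, start of the extra exon: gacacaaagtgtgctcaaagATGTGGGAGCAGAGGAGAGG
Long form, end of the extra exon: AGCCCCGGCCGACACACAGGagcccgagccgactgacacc
The heart libraries held almost only the short form (Ndufv3-202, 312 coding bases), at 474 TPM in replicate 1 and 399 TPM in replicate 2, which was 97.5% and 98.5% of the gene. The long form (Ndufv3-201, 1404 coding bases) was at 11.1 and 5 TPM. The shares of the short form in the second quantification were 97.7% and 98.6%. The long form gave 497 counts in replicate 1 and 238 in replicate 2. Its log2 ratio of replicate 2 over replicate 1 was -0.92 (95% counting interval -1.15 to -0.70), and -0.88 (-1.10 to -0.66) in the second quantification. For the short form the ratio was -0.02 (-0.08 to 0.03). The markers of adipocytes, atrium and fibroblasts, given above, were also lower in replicate 2, and their part in the lower long form was not tested.

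Assembly factors were all low and close together, from 9.45 to 23.5 TPM on average. Ndufaf4, which works with Ndufaf3 on the early quinone module, was highest in replicate 1 at 30.03 TPM but stood at 16.9 TPM in replicate 2. Ndufaf3 was at 22.8 and 18.5 TPM. Ndufaf1, a member of the assembly complex of the membrane arm, was at 24.1 and 20.6 TPM. Thus the order of these 3 changed between the libraries. The 2 factors that modify core subunits are Ndufaf7, a methyltransferase, at 21.6 and 17.4 TPM, and Ndufaf5, which hydroxylates Ndufs7, at 11.3 and 9.99 TPM. Ndufaf8, the partner of Ndufaf5, was at 20.6 and 15.3 TPM and so above it in both libraries. Ndufaf6, related to squalene and phytoene synthases, was at 12.4 and 11.1 TPM. Ndufaf2, a relative of Ndufa12 whose place Ndufa12 later takes, was lowest at 10.5 and 8.42 TPM, where Ndufa12 itself stood at 262 and 222 TPM. The order was another in the second quantification. There Ndufaf3 was highest at a mean of 44.9 TPM and Ndufaf5 lowest at 13.9 TPM, with Ndufaf4 at 20.3 TPM and Ndufaf2 at 19.0 TPM. Of 13 other listed assembly factors, 12 matched a gene symbol. All 12 were detected, at a median of 24.4 ± 2.10 TPM in the first quantification. They ran from Nubpl, which delivers iron-sulfur clusters, at 2.97 and 3.04 TPM to Tmem126a at 39.6 and 33.9 TPM. That range encloses the Ndufaf genes, so low levels were shared by assembly factors of either name.

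Mitochondrially encoded core subunits stood far above the nuclear ones, with a median of 6386 ± 96.8 TPM. The ratio of their median to the nuclear core median was 21.8 in replicate 1 and 25.5 in replicate 2, and 13.0 and 12.2 in the second quantification. The highest was mt-Nd1 at 10935 and 9272 TPM and the lowest mt-Nd6, the only one of the 7 on the light strand, at 1381 and 1321 TPM. For mt-Nd4l, whose coding sequence overlaps that of mt-Nd4, the quantifications differed most, with a mean of 6508 TPM in the first and 72.5 TPM in the second. Lists of nuclear genes of the other complexes were picked by name and need not be complete. They held 4, 9, 10 and 15 genes for complexes II to V, and that of complex IV left out Ndufa4. Among these genes, medians were higher than that of the 36 subunits in complex I (254 ± 27.9 TPM). They were 344 ± 32.7 TPM for complex II, 589 ± 27.1 TPM for complex III, 757 ± 90.3 TPM for complex IV and 579 ± 9.65 TPM for complex V. As ratios to complex I within each library, these were 1.34 and 1.37 for complex II, 2.23 and 2.44 for complex III, 3.00 and 2.96 for complex IV, and 2.09 and 2.50 for complex V. In the second quantification complex II was nearly level with complex I, at 1.08 and 1.06, and the other three stood between 2.47 and 3.16. The ends of these lists were Sdhb (288 TPM) and Sdha (477 TPM), Uqcrfs1 (348 TPM) and Uqcrq (848 TPM), Cox7a1 (496 TPM) and Cox6b1 (1601 TPM), and Atp5g2 (14.7 TPM) and Atp5b (3054 TPM). Atp5g2 was at 402 TPM in the second quantification. No gene of these lists was over 2-fold apart between the libraries, which is near the share of 1.24% among 12134 protein-coding genes.

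**Figure D3:**
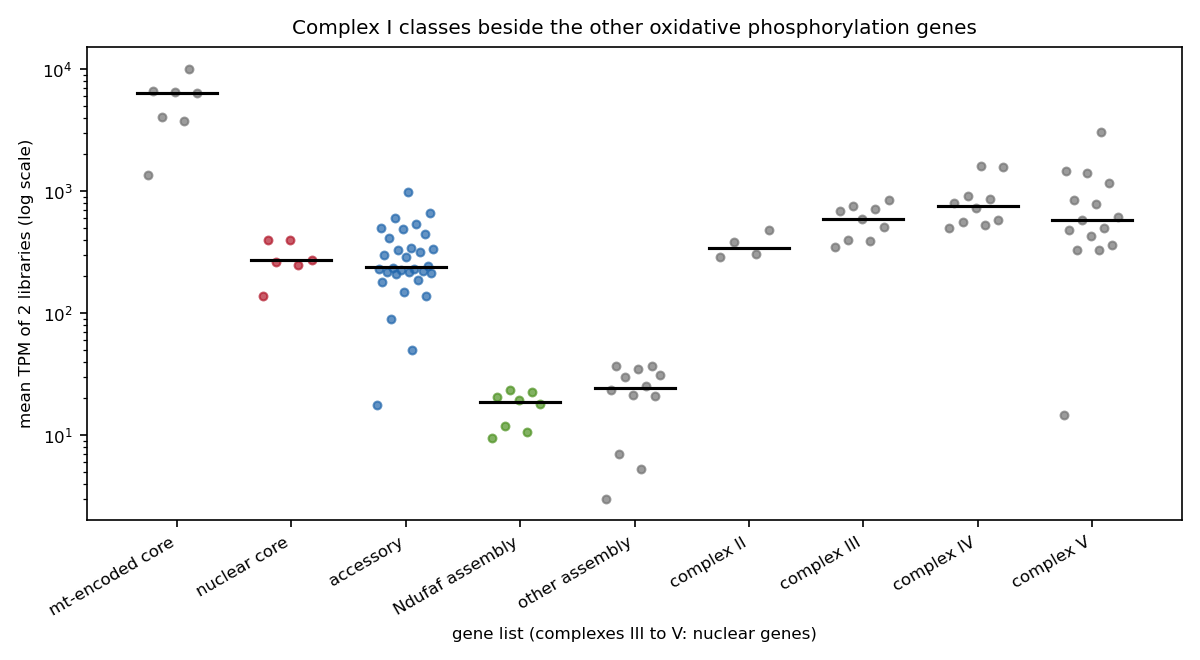
Mean TPM of each gene reported by name over 2 libraries (log axis), with the complex I classes coloured. In grey are the mitochondrially encoded core, other assembly factors and the listed nuclear genes of complexes II to V. Black bars mark the median, averaged over the libraries. Core and accessory medians stand at 272 and 240 TPM, complexes II to V at 344 to 757 TPM and the Ndufaf genes at 18.6 TPM.

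Between the libraries the 46 genes differed little, as did most protein-coding genes. Counts were scaled by TMM factors, which assume that most genes do not change, and a ratio is replicate 2 over replicate 1. With 1 library on each side no test across animals could be made, and intervals cover counting error only. None of the 46 was over 2-fold apart, against 1.24% of 12134 protein-coding genes with a mean count of at least 50 (1.01% lower and 0.231% higher in replicate 2). Beside so small a share, 0 of 46 does not set the members apart. The median of the absolute log2 ratio was 0.09 over the members and 0.13 over all those genes. With a mean count of at least 1000, it was 0.08 for 37 members and 0.10 for 4715 genes. Levels of the 36 subunits in complex I correlated between the libraries on the scale of log2(TPM + 1) with a Pearson r of 0.994 and a Spearman rho of 0.984, across genes that share library and depth.

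Within that narrow range, small differences were common. The interval left out 1 for 26 of 46 genes, where 42.9% of all genes did so. It was lower in replicate 2 for 11 of them and higher for 15, against 21.5% and 21.4% of all genes. With at least 1000 counts it left out 1 for 23 of 37 members and for 58.9% of genes, which is near the same share. The split depended on the scaling: 12 lower and 11 higher with median-of-ratios size factors, and 26 lower and 1 higher with the total count, which moved the median of all genes from 0.00 to -0.11. On the scale of TPM, all 46 were lower in replicate 2, as were 82.8% of detected protein-coding genes, and the median log2 TPM ratio of all genes was -0.22. Set against that shift, the median TPM ratio of -0.22 for the core lay at the level of all genes.

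By class the median log2 ratio was -0.00 for the core, 0.04 for accessory members, which turned to -0.06 with the total count, and -0.17 for assembly factors. Of the 8 assembly factors, 6 were lower in replicate 2 and 2, Ndufaf5 and Ndufaf6, were higher. Of 12134 protein-coding genes with a mean count of at least 50, 6049 were lower and 6085 higher. With the total count, which moved the median of all genes to -0.11, 7 of the 8 were lower. Ndufaf4 had the largest difference of all members, with 1406 counts in replicate 1 and 982 in replicate 2, a log2 ratio of -0.38 (-0.50 to -0.26). Ndufaf1 followed with 884 and 707 counts and a ratio of -0.18 (-0.33 to -0.04). For Ndufaf7 the counts were 689 and 552 and the ratio -0.18 (-0.34 to -0.01). The intervals of the other five included 1. The medians of the lower and upper interval bounds over the 8 were -0.36 and 0.07. Markers of adipocytes, atrium and fibroblasts were also lower in replicate 2, as given above, and their part in the ratios of Ndufaf4, Ndufaf1 and Ndufaf7 was not tested.

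In the other direction, the highest ratio was that of Ndufb4, with 915 and 1009 counts and a log2 ratio of 0.28 (0.15 to 0.41). Summed with Ndufb4c the counts were 2791 and 2752 and the ratio fell to 0.12 (0.04 to 0.20), a smaller value. Ndufa7, a peripheral arm subunit, had 2760 and 2768 counts and a ratio of 0.15 (0.07 to 0.22). Ndufb2 of the membrane arm had 2675 and 2655 counts and a ratio of 0.13 (0.05 to 0.21). Before scaling, the counts of Ndufa7 and Ndufb2 were nearly equal in the libraries. Core subunits with ratios above 0 whose intervals left out 1 included Ndufv1 and Ndufs1, at 0.09 and 0.04. Ndufs8 was the one core subunit with an interval below 0, at -0.11 (-0.19 to -0.04).

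**Figure D4:**
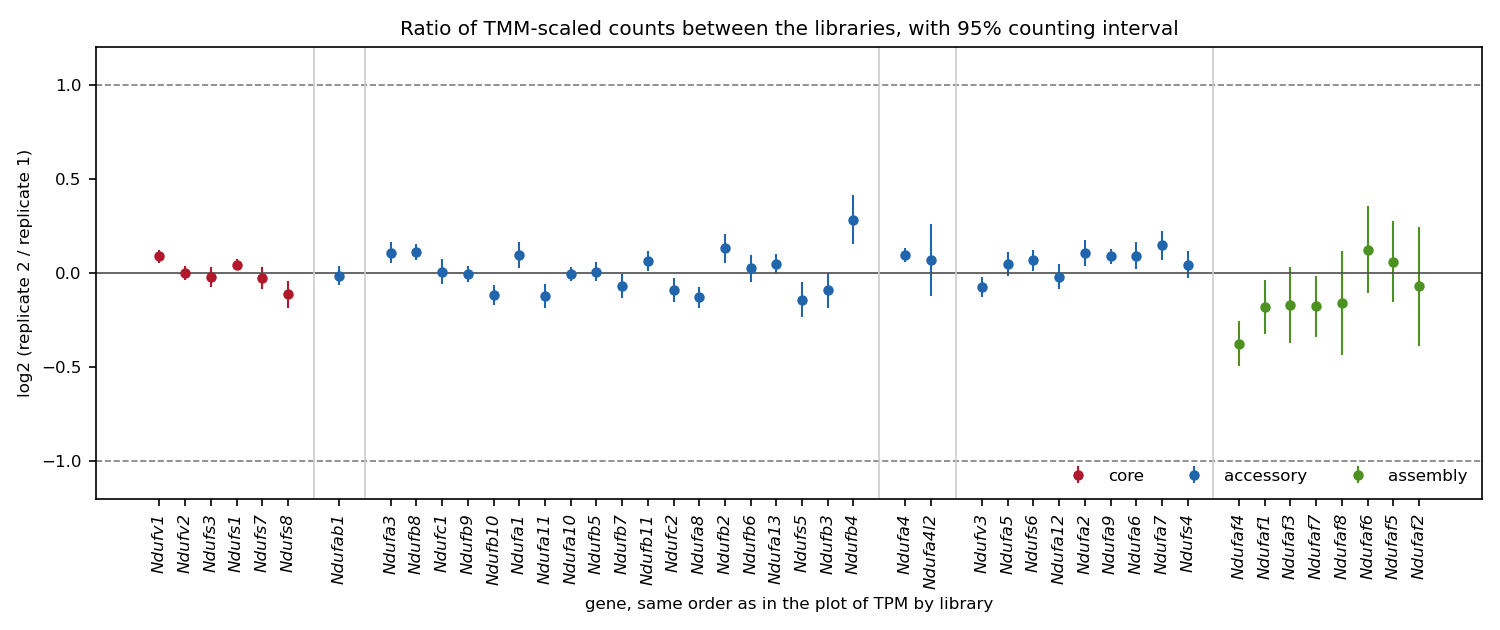
Log2 ratio of TMM-scaled counts, replicate 2 over replicate 1, for 45 of the 46 genes in the order of the plot of TPM by library; bars are 95% counting intervals and dashed lines mark 2-fold. All points lie between -0.38 (Ndufaf4) and 0.28 (Ndufb4); scaling by the total count would lower every point by 0.11.

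Levels differed more between the quantifications than between the libraries. The second quantification gave a higher mean TPM for 43 of 46 genes, where it did so for 94.9% of detected genes. The exceptions were Ndufa3, at 1.63 times the second, Ndufab1 and Ndufaf4. All protein-coding genes together held 53.5% and 47.5% of TPM in the first quantification and 72.0% and 70.1% in the second. As a median, the first stood at 0.673 of the second over the 46 genes and at 0.742 over all protein-coding genes. Without adjustment for that general difference, the quantifications were over 2-fold apart for 5 of 46, against 4.2% of detected genes. All 5 were higher in the second. These were Ndufb4 (49.7 and 305 TPM), Ndufs5 (139 and 312 TPM), Ndufb5, a membrane arm subunit (288 and 579 TPM), Ndufaf3 (20.6 and 44.9 TPM) and Ndufaf2 (9.45 and 19.0 TPM). Over the 36 subunits in complex I, log2(TPM + 1) in the quantifications had a Pearson r of 0.744 and a Spearman rho of 0.814. The counts, as distinct from TPM, parted most for short genes. In the 8 members under 500 bases, the second quantification held a median of 0.693 of the counts of the first, in the 28 of at least 500 but under 1000 bases 0.886, and in the 10 of at least 1000 bases 0.996. In TPM the order was another: the first quantification stood at a median of 0.957 of the second under 500 bases, 0.622 in the middle class, which held all 5 genes over 2-fold apart, and 0.791 in the longest. Ndufa1, a small membrane arm subunit, had 3351 counts in replicate 1 in the first quantification and 1112 in the second. Its TPM values were 346 and 336, since the second also used a shorter effective length for it.

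**Figure D5:**
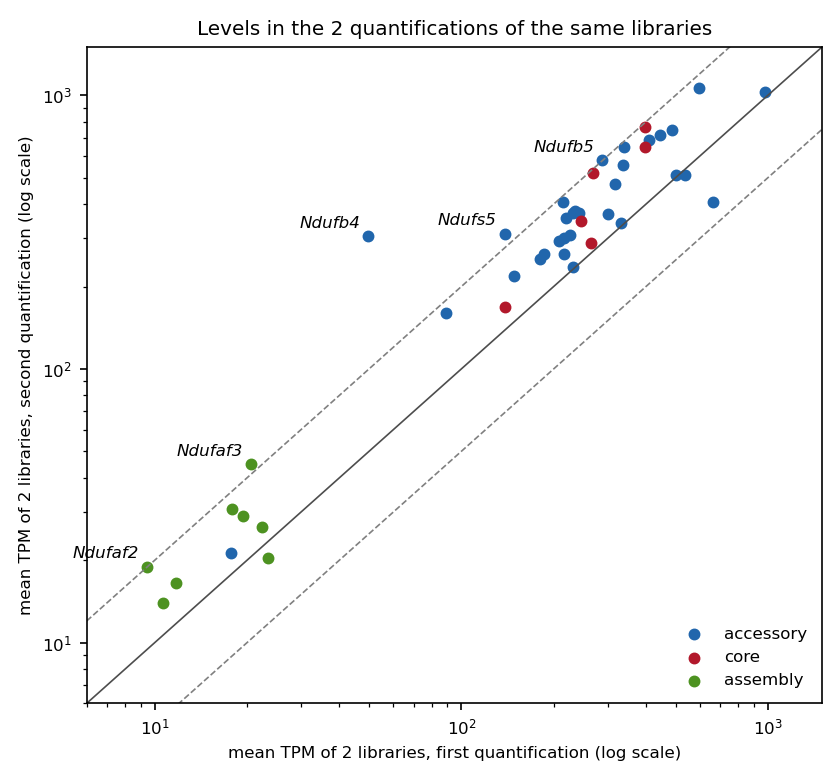
Mean TPM over 2 libraries in the first (horizontal) and second (vertical) quantification for 45 of the 46 genes, on log axes; the solid line is equality, dashed lines are 2-fold apart and the 5 genes beyond them are named. Ndufb4 lies farthest from the line, at 49.7 and 305 TPM.

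At the level of transcripts, the highest transcript of several members was not annotated as coding. That held for 9 members in the first quantification (background 6.54%), 11 in the second (8.44%) and 8 in both (4.32%). The 8 were Ndufa3, Ndufa5, Ndufab1, Ndufb4, Ndufc1, Ndufs4, Ndufaf4 and Ndufaf7. A noncoding highest transcript is not the same as a low coding share: for Ndufaf7 all coding transcripts together held 55.8% and 60.5% in the first quantification. For Ndufs4, a peripheral arm subunit whose loss causes mitochondrial disease, transcripts annotated as coding held 10.9% and 12.7% of the gene's TPM in the first quantification and 13.7% and 12.2% in the second. The highest Ndufs4 transcript, Ndufs4-204, is annotated for nonsense-mediated decay and held 56.1% and 55.7%. For Ndufa3 the transcript Ndufa3-204, also annotated for nonsense-mediated decay, held 93.3% in both libraries in the first quantification, while a retained-intron transcript, Ndufa3-205, held 57.8% and 52.4% in the second. For Ndufa5 the transcript Ndufa5-204, annotated as processed, held 67.2% and 68.0% in the first and 72.8% and 68.7% in the second. Of the 31-base words of Ndufs4-204, 88.1% also occur in coding transcripts of the same gene, as do 91.4% of those of Ndufa3-204 and 84.4% of those of Ndufa5-204, so reads can tell these from coding transcripts only in the remaining words. The share was lower for the retained-intron transcripts Ndufb4-202 (54.3%) and Ndufa3-205 (36.3%).

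Quantifications named different highest transcripts for 12 members, against 21.8% of detected genes. In Ndufa4, Ndufa9, Ndufs7, Ndufs8 and Ndufaf1, both transcripts were coding. The coding share of Ndufs7 was 74.3% and 72.3% in the first quantification and 63.9% and 67.9% in the second. Ndufaf1, which also changed between coding transcripts, held 89.9% and 77.8% in coding transcripts in the first quantification and 91.4% and 87.5% in the second. For Ndufa7 the coding share was 90.2% and 90.3% in the first quantification but 0.00927% and 6.58% in the second, where a retained-intron transcript, Ndufa7-207, took 49.0% and 50.3%. Ndufb2 went from 82.1% and 81.9% to 24.1% and 23.9%. Ndufb10 went from 70.2% and 70.8% to 34.1% and 35.4%. In the opposite sense, Ndufaf8 went from 37.7% and 42.4% to 99.9% and 92.8%. For Ndufb2, Ndufb10 and Ndufaf8 the libraries were closer to each other than the quantifications were, whereas for Ndufaf1 the libraries differed more in the first quantification than the quantifications did in replicate 1. Ndufc1 and Ndufa3 changed from one noncoding transcript to another, as did Ndufaf7.

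The genes themselves often begin next to another gene. For 21 of 46, the annotated start lay within 1000 bases of the start of a protein-coding gene on the opposite strand, against 16.6% of detected protein-coding genes and 10.8% of all. The partners included Rps28, a ribosomal protein gene 10 bases from Ndufa7, Tatdn1, 18 bases from Ndufb9, and the mitochondrial ribosomal protein genes Mrpl36 and Mrpl47 beside Ndufs6 and Ndufb5, whose first exons overlap those of their partners. Exons overlapped an antisense gene over 39.0% of Ndufb6 (Smim27, 134 and 110 counts) and 29.98% of Ndufa13 (Tssk6, 5 and 2 counts). The sources used here do not say if reads were counted by strand. The partners' counts were small beside those of Ndufb6 (3248 and 2993) and Ndufa13 (5475 and 5127). The overlap of Ndufaf3 with Impdh2 was 48 bases, and there the partner had more counts (1095 and 895) than Ndufaf3 (461 and 371).

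Promoter sequences of RefSeq (GRCm38.p6, 300 bases from 250 before to 50 after the start) matched 40 of 46 members. They were searched on both strands for motifs of factors known to act on nuclear genes of the respiratory chain. The NRF1 motif, GCGC and TGCGC with any base between them, was found in 9 of 40 (22.5%), against 12.1% of the promoters of detected protein-coding genes and 5.19% of all 27025. The 9 were Ndufa5, Ndufa6, Ndufa8, Ndufa11, Ndufb4, Ndufs5, Ndufs6, Ndufaf4 and Ndufaf5, so the motif occurred in subunits and in assembly factors. Windows around the match nearest the start are shown for 6 of them in which it lies before the RefSeq start, with the motif in capitals and each window on the gene's strand.
Ndufa11: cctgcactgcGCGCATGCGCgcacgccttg
Ndufa8: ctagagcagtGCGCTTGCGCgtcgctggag
Ndufb4: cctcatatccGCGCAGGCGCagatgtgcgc
Ndufs5: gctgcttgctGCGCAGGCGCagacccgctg
Ndufs6: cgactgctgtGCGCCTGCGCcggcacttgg
Ndufaf4: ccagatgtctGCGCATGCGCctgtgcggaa
For Ndufa8, Ndufb4 and Ndufs6 the window lies within the gene as GENCODE M21 annotates it, which begins earlier. The windows come from chr17:56717692-56717721 (Ndufa11), chr2:36049349-36049378 (Ndufa8), chr16:37654371-37654400 (Ndufb4, which held 3 matches), chr4:123718265-123718294 (Ndufs5), chr13:73328479-73328508 (Ndufs6) and chr4:24897960-24897989 (Ndufaf4). The YY1 motif AAGATGGCG was found in 6 of 40 (15.0%), against 3.76% of the promoters of detected genes and 1.64% of all. Each of these matches lay just after the RefSeq start, on the gene's own strand, and Ndufs6 held both motifs. The YY1 motif contains the letters ATG, and whether these are the start codons of the genes was not examined.
Ndufa9: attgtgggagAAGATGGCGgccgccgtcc
Ndufc1: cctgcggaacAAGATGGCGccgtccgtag
Ndufs4: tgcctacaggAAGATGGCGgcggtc
Ndufs7: ggccgaggccAAGATGGCGgcgctggcgg
Ndufs6: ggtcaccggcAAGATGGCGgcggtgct
Ndufaf8: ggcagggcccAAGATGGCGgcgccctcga
These are chr6:126849097-126849125 (Ndufa9), chr3:51408915-51408943 (Ndufc1), chr13:114388045-114388069 (Ndufs4), chr10:80249463-80249491 (Ndufs7), chr13:73328433-73328459 (Ndufs6) and chr11:120098934-120098962 (Ndufaf8). GABPA's motif CCGGAAGT was in 1 promoter, that of Ndufs3 (2.50%, against 9.53% of detected genes), the SP1 motif GGGGCGGGG in 6 (15.0%, against 25.9%), and the ERR motif TCAAGGTCA in 0 of 40, where 0.321% of detected genes held it. The NRF1 and YY1 motifs were thus more frequent than among detected genes and the GABPA and SP1 motifs less frequent, with no test made of these shares. A match is a string of letters and not evidence of binding. Median GC content was 59.2% over the 40 promoters and 61.3% over those of detected genes.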

How the data were processed

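Per the deposited notes and file headers, the authors quantified each library on mm10 with GENCODE M21 in 2 ways, from alignments to the transcriptome (the first quantification) and directly from reads (the second). The sources used here name no program or version and do not say if strand was used. The authors' tables hold expected or estimated counts, TPM scaled over all rows, and FPKM, which served as an alternative. The reference is B6-based, so some CAST reads could be lost. Rows naming no gene (26249, spike-in controls apart) held 3.89 and 3.00 counts, at most 1.00125e-05% of the total, and were left out.

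TPM was averaged over the libraries, with the SD over 2. Detection meant 1 TPM or more in both. Expected counts were rounded and scaled with edgeR 4.0.16 (TMM), 0.5 was added to each, and log2 ratios of replicate 2 over replicate 1 were given exact 95% Clopper-Pearson intervals at a mean count of 50 or more. A floor of 3 counts equals 0.0772 and 0.0791 CPM. Both cover only counting error, and may understate it, because PCR reads lacking molecular identifiers are not independent. The ratio step was tested on simulated data. Alternatives were the second quantification, DESeq2 1.42.0 size factors, the total count, other detection limits, FPKM, rescaled TPM and each library alone. No test across animals and no p-value was computed.

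The genes, lists and motifs were chosen with earlier results of these data known. One member is counted in totals, medians and ranges but not reported by name here. Named are the other core subunits, all assembly factors, the 5 accessory members at each end of mean TPM, the 3 with the largest ratio in each direction, those over 2-fold apart between quantifications, those whose highest transcript was noncoding or differed, close copies, and the ends of the comparison lists. BC002163, Gm15920, Gm4459, Gm12251, mt-Nd4l, the genes beside the members, Ndufv3's long form, and Ndufa1, Ndufa12, Ndufb6, Ndufb9 and other members of the middle of the range or with a motif were named after their values were seen.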

Additional observations from a re-analysis of the deposited data

Results flagged for a closer look

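Signal appeared in 2 Nduf symbols that the rule left out, above the limit of 3 counts that a count of 0 allows. Ndufb1-ps (chromosome 12, 101968090 to 101977068, minus strand, mm10), whose symbol holds "-ps" and whose annotated type is a long noncoding RNA from a bidirectional promoter, held 1416 counts in replicate 1 and 1309 in replicate 2. Its level was 106 and 93.4 TPM, higher than that of Ndufb3, and the second quantification gave it 265 and 257 TPM. Its symbol is that of subunit B1, and whether its RNA encodes that subunit was not settled here, so the 36 subunits may lack one. Ndufb4c, the processed pseudogene identical to the Ndufb4 coding sequence, held 1876.09 and 1743.25 counts in the first quantification and 0 in the second. The 3 other left-out symbols, Ndufa11b, Ndufs6b and Ndufab1-ps, held at most 9.80 counts in the first quantification.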

How the results depend on the processing

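Of 47 alternatives, 33 stayed within the spread between libraries, the counting interval or 1.5 times the count, and 14 moved. Some of the 33 could not move. A median from 1 library always lies within the SD of 2 libraries around their mean, and detection in both libraries includes detection in each. Keeping only detected members or dropping the minimum count changed nothing, since all 46 genes passed both. The tally is therefore no measure of how stable the results are. The medians of core, accessory and assembly genes were 431, 372 and 23.5 TPM in the second quantification, 675, 597 and 46.0 TPM when TPM was rescaled over nuclear protein-coding genes, and 220, 194 and 15.0 in FPKM, with the order of the classes kept in each. Left out in turn, the libraries gave 248 to 296 TPM for the core, 221 to 259 TPM for accessory members and 16.1 to 21.1 TPM for assembly factors. With the total count, the median log2 ratio was -0.11 for the core and -0.063 for accessory members, and as a ratio of TPM it was -0.22 and -0.18. These scalings also moved the median of all genes, to -0.11 and -0.22. For assembly factors it stayed below 0 in every alternative run, between -0.31 and -0.17. All 46 genes were detected at 5 TPM and in the second quantification, and 0 were over 2-fold apart in each alternative. The number with an interval that left out 1 ranged from 22 to 27, with 13 lower and 9 higher in the second quantification. Added after the data were seen, summing the TPM of Ndufb4 and Ndufb4c, each at its own length, gave 250 TPM for the pair. With that sum in place of Ndufb4, the accessory median was 242 TPM. The cause was not tested for the values that moved. The low counts of assembly factors, 157 to 1406, limit the precision of their ratios. No paired analysis was possible because there was 1 group.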
